A study of Mus musculus with 12 samples.

Results

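The enzymes of glycolysis, of pyruvate entry into the mitochondrion and of the tricarboxylic acid (TCA) cycle were followed in BV-2 cells, an immortalised mouse microglial line, by the transcript events listed for their genes. The 38 genes were fixed by name and not by a rule on measured values, but with earlier results of these data known. All 38 were among the 14275 genes listed in the series. Of them, 16 belong to glycolysis and 22 to the TCA part, which also holds the pyruvate entry genes and Acly, the enzyme that splits exported citrate. Total RNA had been sequenced in 12 libraries in 4 groups of 3: lipopolysaccharide with nicotinamide mononucleotide (LPS+NMN), lipopolysaccharide alone (LPS), nicotinamide mononucleotide alone (NMN) and untreated cells (Control). LPS, from the outer membrane of bacteria, activates microglia, and NMN is a precursor of NAD, the electron carrier that glyceraldehyde-3-phosphate dehydrogenase and several TCA cycle enzymes reduce. The doses and times are not given in the sources used here. All 4 groups are the same line, and no genetic change is named. The labels do not say that replicates are separate cultures, and p-values therefore measure only the spread between libraries, which may be technical. The series was made to compare LPS+NMN with LPS.

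Glycolysis turns glucose into pyruvate in the cytosol, with commitment steps at the hexokinases and phosphofructokinases, and lactate dehydrogenase returns NADH to NAD. Pyruvate dehydrogenase admits pyruvate to the TCA cycle as acetyl-CoA, and its kinases switch it off. Inflammatory activation of macrophages and microglia is known for increased glycolysis and an interrupted TCA cycle. Several of these enzymes exist as splice forms, the best known being the M1 and M2 forms of pyruvate kinase.

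For each library a list of transcript events was deposited, with neither reads nor expression levels nor depth. An event is a first exon, a last exon, a skipped exon, a retained intron or an alternative exon end, and a gene's value in a library is how many distinct events were listed. This number says how many transcript structures were listed and is not an expression level. A library listed between 11911 and 12246 genes and between 50784 and 55787 events, the most of both in Control replicate 1. The labels call the cells macroglia, but 11 of 13 microglia and macrophage markers were listed in all 12 libraries and 4 of 6 astrocyte markers in none. The events of the microglia and macrophage markers summed to between 45 and 50 in LPS+NMN, 45 and 51 in LPS, 40 and 49 in NMN, and 47 and 54 in Control libraries. Their part in the results was not tested.

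Some exons named in the results are given first, read 5′ to 3′ on the strand of the gene from GRCm38. They are examples and not the exons that separated groups. The files' positions are on an assembly they do not name, so each listed exon was identified by length and spacing against GENCODE M21 after 1 shift per gene, and 255 of 326 splice sites of the enzymes (78.2%) matched an annotated one. In the first 4 sequences capitals mark the exon and lower case its 20 neighbouring spliced bases on each side. The first is exon 6 of Hk2-201, at chr6:82743268-82743367 on the minus strand, a coding exon of 100 bases whose omission shifts the reading frame. The second is exon 6 of Idh2-201, at chr7:80098136-80098272 on the minus strand, with 137 coding bases that also shift the frame. The third, of 30 bases, is exon 14 of Acly-203 at chr11:100503160-100503189 on the minus strand, and the fourth, of 12 bases, is exon 3 of Idh3g-201 at chrX:73782298-73782309 on the minus strand; both keep the frame. The last 2 are the mutually exclusive exons of Pkm, shown alone because the M1 and M2 forms of the enzyme differ in them: exon 9 of Pkm-202 (M1) at chr9:59675029-59675195 and exon 9 of Pkm-201 (M2) at chr9:59675568-59675734, both on the plus strand. In these capitals mark the 64 of 167 bases that differ between the pair, which leaves 61.7% identity.
Hk2 exon 6: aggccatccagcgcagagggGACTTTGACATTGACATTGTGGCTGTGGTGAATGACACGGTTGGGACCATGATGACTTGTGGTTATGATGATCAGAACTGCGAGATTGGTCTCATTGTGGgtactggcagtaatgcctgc
Idh2 exon 6: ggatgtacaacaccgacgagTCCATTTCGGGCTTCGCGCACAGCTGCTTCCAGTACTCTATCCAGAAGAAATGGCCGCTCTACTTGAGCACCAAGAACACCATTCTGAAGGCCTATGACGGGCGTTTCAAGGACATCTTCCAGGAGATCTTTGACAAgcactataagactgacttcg
Acly exon 14: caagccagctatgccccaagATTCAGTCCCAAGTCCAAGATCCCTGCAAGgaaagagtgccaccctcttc
Idh3g exon 3: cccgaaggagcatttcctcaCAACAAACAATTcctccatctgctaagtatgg
Pkm M1 exon: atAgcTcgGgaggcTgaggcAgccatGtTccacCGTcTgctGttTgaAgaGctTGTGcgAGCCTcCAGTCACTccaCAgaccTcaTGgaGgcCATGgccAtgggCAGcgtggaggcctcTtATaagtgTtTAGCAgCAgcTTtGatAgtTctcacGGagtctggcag
Pkm M2 exon: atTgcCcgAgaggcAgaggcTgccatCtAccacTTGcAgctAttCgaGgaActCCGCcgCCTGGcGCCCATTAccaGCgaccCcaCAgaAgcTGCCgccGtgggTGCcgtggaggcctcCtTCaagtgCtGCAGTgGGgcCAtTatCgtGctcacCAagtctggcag

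All 38 enzymes were listed in all 12 libraries when events on either strand were counted. On the strand of the gene itself, Gpi1 had no event in LPS replicate 2 and Suclg1 none in Control replicate 2. The same held for Hk2 in NMN replicate 2 and Mdh2 in NMN replicate 3. The median enzyme had 3.79 events per library, against 3.83 over the 10858 genes listed in every library. Hk3, the hexokinase of myeloid cells, had the most events, between 9 and 20, and 3 enzymes had 2 events, 1 first and 1 last exon, in every library: Tpi1, triosephosphate isomerase, Pgk1, phosphoglycerate kinase, and Cs, citrate synthase. Together with Idh3b and Dlst, 5 enzymes (13.2%) had the same number in all 12 libraries, against 10.2% of the genes listed throughout. These 5 could not be tested, which left 33 among 11671 tested genes.

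**Figure D1:**
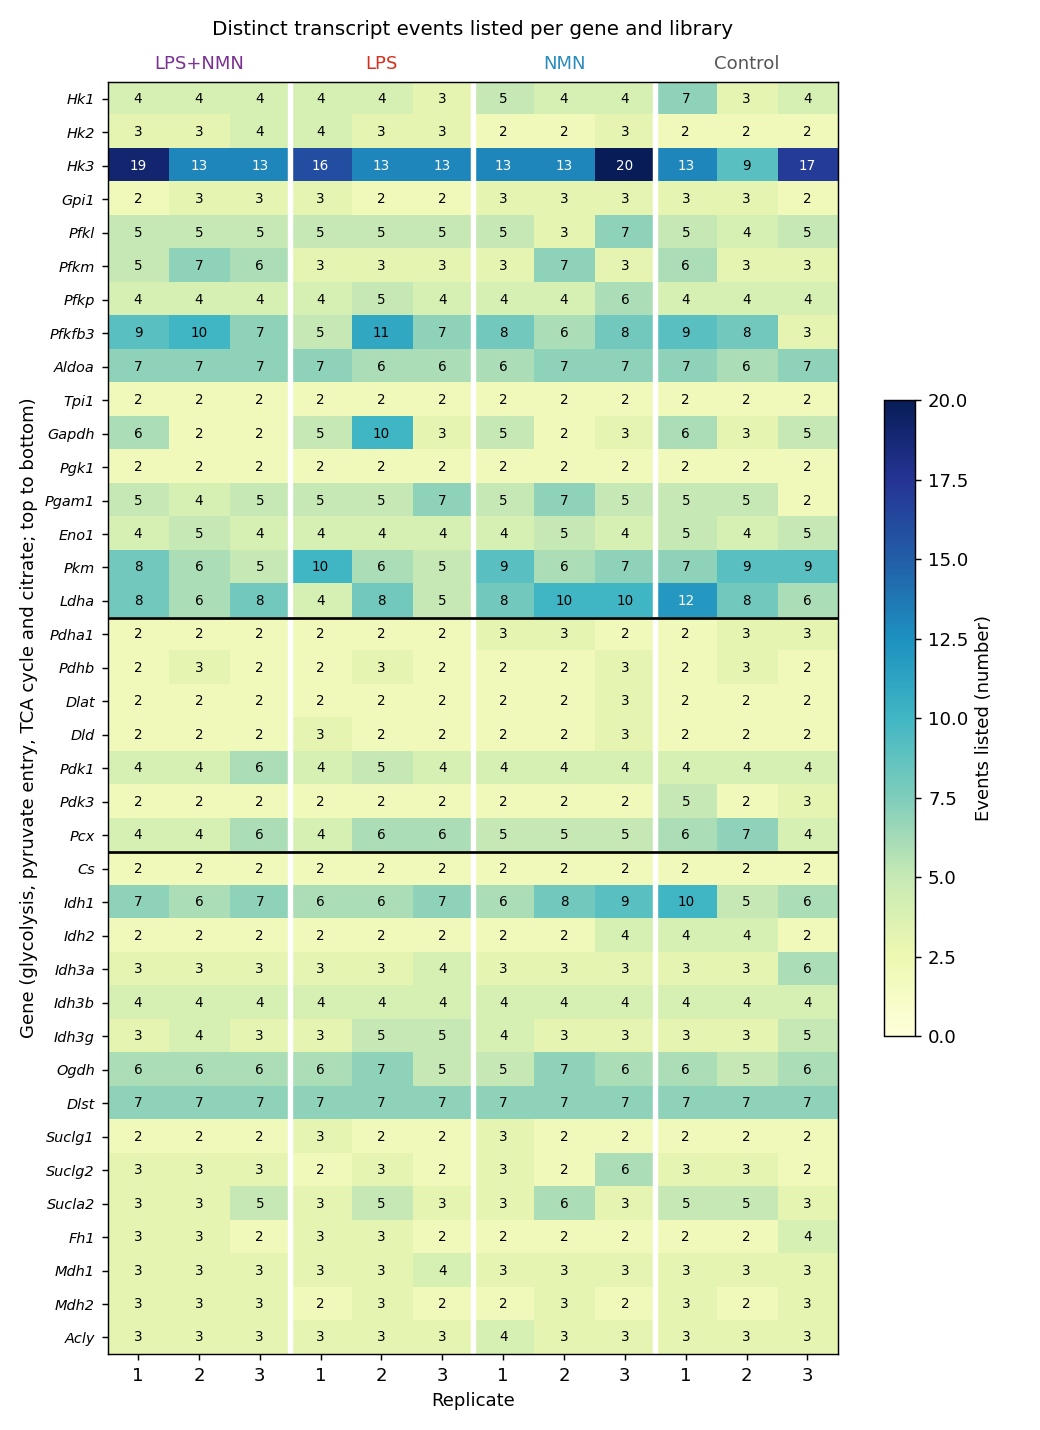
Number of distinct transcript events (colour and figure in each cell) of the 38 enzymes (rows, by pathway) in the 12 libraries (columns, by group and replicate). Hk3 reaches 20 events, most enzymes hold between 2 and 7, and Hk2 has 2 events in all 3 Control libraries and 3 or 4 in every LPS+NMN and LPS library.

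No enzyme changed past the threshold in any comparison. With limma on log2(events + 1) and Benjamini-Hochberg adjustment at 0.05 over all genes tested, 0 of 33 enzymes were called for LPS against Control, where 0.257% of all genes were called higher and 0.0428% lower. For NMN against Control 0 of 33 were called, with 0.223% of all genes higher and 0.00857% lower, and for LPS+NMN against Control 0 of 33, with 0.283% higher and 0.0514% lower. For LPS+NMN against LPS, and likewise for LPS+NMN against NMN, 0 of 33 were called and 0% of all genes in either direction. The test of whether the LPS difference was another in the presence of NMN called 0 of 33 enzymes, with 0% of genes higher and 0.0428% lower. Calls were so rare among all genes that their absence among 33 sets the enzymes apart in nothing, and a p that misses the threshold does not show that values were equal.

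At an unadjusted p under 0.05, limma gave 2 of 33 enzymes (6.06%) for LPS against Control, Hk2 and Pdk3, near the 7.47% of all genes. It gave 1, Pdk3, for NMN against Control (7% of all genes), and Hk2 and Pdk3 for LPS+NMN against Control (7.45%). It gave 1, Pfkm, for LPS+NMN against LPS (4.46%), 1, Hk2, for LPS+NMN against NMN (4.55%), and 0 for the interaction (5.75%). Both directions occurred in each comparison, with the most unequal numbers for LPS+NMN against NMN. For LPS against Control 14 enzymes had a positive difference, 16 a negative one and 3 none, and for LPS+NMN against LPS 13 were positive, 10 negative and 10 at 0. NMN against Control gave 16 positive, 12 negative and 5 at 0, LPS+NMN against Control 12, 13 and 8, and LPS+NMN against NMN 9, 18 and 6. Over all genes the positive and negative shares were 39.4% and 45.4% for LPS against Control and 42.7% and 39.6% for LPS+NMN against LPS. The shares were 40.7% and 43.4% for NMN against Control, 40.9% and 43.6% for LPS+NMN against Control, and 41.2% and 40.6% for LPS+NMN against NMN. The median difference of the 33 was -0.06 on the log2(events + 1) scale for LPS+NMN against NMN and 0 in the other comparisons, and over all genes it was 0 in each. The 3 comparisons against Control share the Control libraries.

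**Figure D2:**
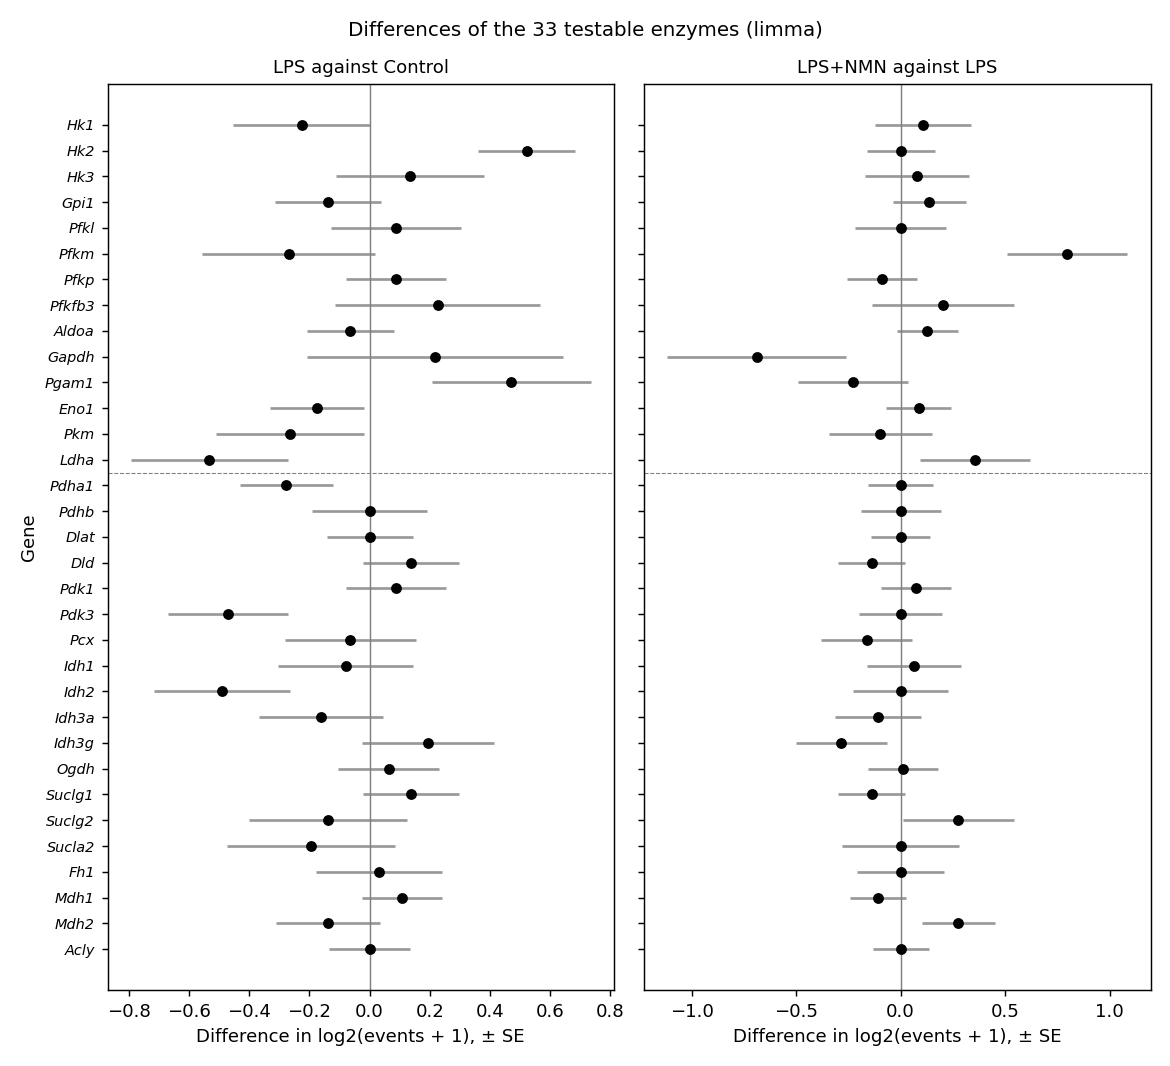
Difference in log2(events + 1) with its standard error from limma (horizontal axes) for the 33 testable enzymes (rows; glycolysis above the dashed line), LPS against Control on the left and LPS+NMN against LPS on the right. Hk2 lies at 0.52 on the left and 0 on the right, Pfkm lies at 0.80 on the right, and the other enzymes scatter on both sides of 0.

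The summed events of each pathway differed between groups by less than the spread between libraries, or by little more. Glycolysis summed to 85.7 ± 6.43 events in LPS+NMN, 82.0 ± 7.55 in LPS, 87.0 ± 6.08 in NMN and 82.7 ± 10.8 in Control libraries (SD, n = 3 each). The TCA part summed to 74.0 ± 2.65 in LPS+NMN, 75.0 ± 4.58 in LPS, 77.0 ± 4.0 in NMN and 79.0 ± 3.61 in Control libraries (SD, n = 3 each). The highest sum of both pathways was that of Control replicate 1, with 95 and 83 events, the library with the largest catalogue. No test was made on these sums, because the genes were chosen with earlier results known.

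**Figure D3:**
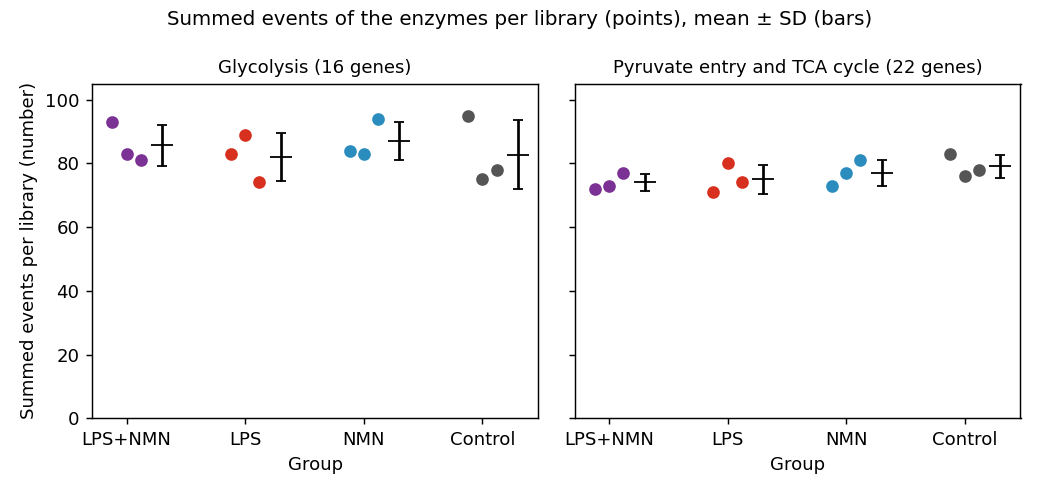
Summed events per library (vertical axis) of the 16 glycolysis genes on the left and of the 22 genes of pyruvate entry and the TCA cycle on the right, by group; points are libraries and bars the mean ± SD of 3. The glycolysis sums lie between 74 and 95 and the TCA sums between 71 and 83, and in both panels the groups overlap.

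Among the hexokinases, which phosphorylate glucose at the entry of glycolysis, Hk2, the inducible form that binds mitochondria, was the enzyme whose event numbers did not overlap between LPS and Control. Hk2 had 3, 3 and 4 events in LPS+NMN, 4, 3 and 3 in LPS, 2, 2 and 3 in NMN, and 2, 2 and 2 in Control libraries. Every LPS+NMN and every LPS library stood above every Control library, and NMN overlapped both. The difference was 0.52 ± 0.16 (SE) on the log2(events + 1) scale for LPS against Control, with a limma p of 0.00747 and an adjusted p of 0.343, and the same size for LPS+NMN against Control, with an adjusted p of 0.385. Over all genes, 2.15% had groups that did not overlap in the higher direction and 2.3% in the lower for LPS against Control, and 2.2% and 2.12% for LPS+NMN against Control, so 1 of 38 enzymes higher and 0 lower in each is near what all genes gave. For NMN against Control 0 of 38 enzymes were separated in either direction, with 1.85% of genes higher and 2.02% lower.

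Some events of Hk2 lay on the strand opposite to the gene. Hk2 had first or last exons listed on the opposite strand in 2 LPS+NMN, 3 LPS, 2 NMN and 0 Control libraries. Presence in all LPS and no Control libraries was found for 17 genes (0.124% of all), and Hk2 was the 1 enzyme of 38 with it. The reverse was found for 18 genes, no enzyme among them. Only 2890 genes (20.2% of all) had an opposite-strand event in any library, and the remaining genes could show neither pattern. The 0.124% therefore understates how common the pattern was among genes that could show it. On its own strand Hk2 had 3, 2 and 3 events in LPS+NMN, 3, 2 and 1 in LPS, 2, 0 and 1 in NMN, and 2, 2 and 2 in Control libraries. Counted this way LPS and LPS+NMN overlapped Control. The difference on the log2(events + 1) scale was then 0.28 for LPS+NMN against Control, -0.06 for LPS against Control, -0.72 for NMN against Control and 1 for LPS+NMN against NMN, against 0.52, 0.52, 0.14 and 0.38 with both strands. The opposite-strand exons stood where an own-strand first or last exon was missing. In libraries with more than 2 events, those beyond 1 first and 1 last exon were listed on the gene's own strand. With splicing events only the difference was 0.67 for LPS against Control. Which strand the difference between groups came from was not tested.

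The exon structure listed for Hk2 varied with these libraries. Its annotated first exon (Hk2-201) was listed in 3 LPS+NMN, 1 LPS, 1 NMN and 3 Control libraries, and its annotated last exon in 1, 1, 1 and 3 libraries of the same groups. A second annotated first exon (Hk2-203, 355 untranslated bases) was listed in 2 LPS+NMN, 1 LPS, 0 NMN and 0 Control libraries. Skipping of exon 6, the 100 bases in capitals above, was listed in LPS+NMN replicates 1 and 3, LPS replicates 1 and 3, NMN replicate 3 and 0 Control libraries. In LPS replicate 1 the surplus was this skipped exon and another last exon, in LPS replicate 2 the Hk2-203 first exon and in LPS replicate 3 the skipped exon. The 3 Control libraries and NMN replicate 1 held the annotated first and last exon of Hk2-201 alone.

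Opposite-strand events were no rarity of Hk2. They were listed for 8 of the 38 enzymes (21.1%), against 22.3% of the genes listed in all 12 libraries, and made up 47 of 1927 listings of the enzymes. Besides Hk2 the 8 were Hk1, Gpi1, Pfkp, Pfkfb3, Dlst, Suclg1 and Mdh2. Where a library listed an opposite-strand event of an enzyme, it lacked an own-strand first or last exon of that gene in 28 of 28 cases, the last exon in 27 of them. Over all genes this held in 7203 of 7571 cases (95.1%). A listed gene has at least 1 first and 1 last exon on either strand, so a missing own-strand end had an opposite-strand exon in its place. Opposite-strand exons could also add to the total. Hk1 in Control replicate 1 had 4 of them among 7 events, all last exons. The sources used here do not say whether the libraries kept strand, and reads of a gene and of an antisense transcript may not have been told apart.

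**Figure D4:**
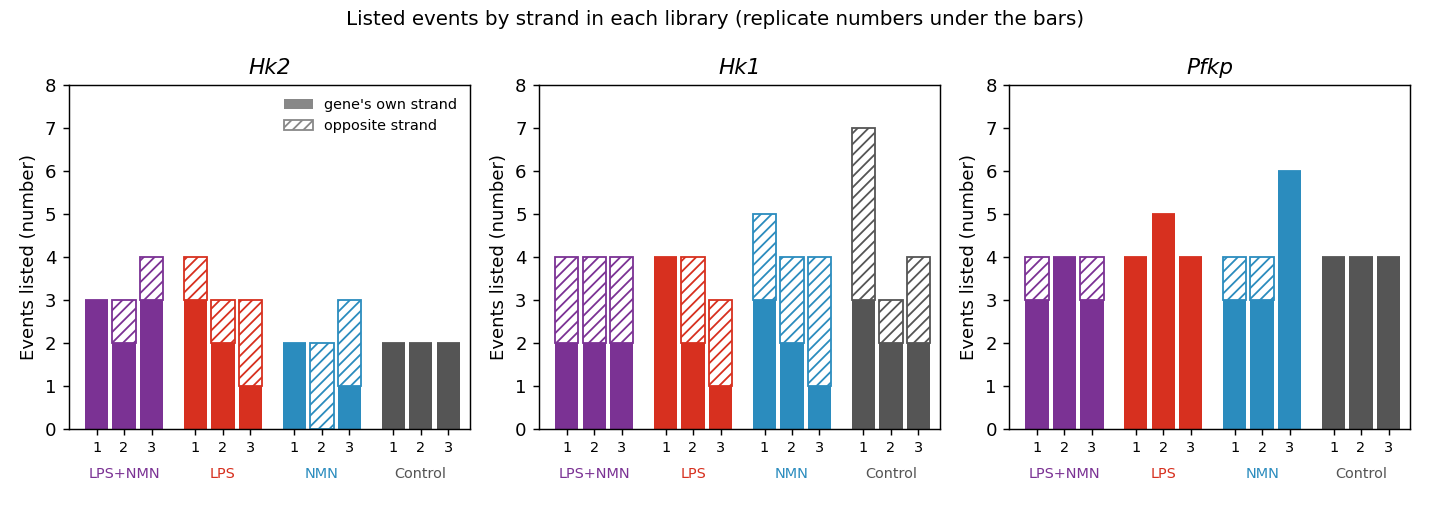
Listed events (vertical axis, number) of Hk2, Hk1 and Pfkp in each library (bars, by group and replicate), filled for the gene's own strand and hatched for the opposite strand. Control libraries hold 2 own-strand events of Hk2 and no hatched ones, whereas Hk1 has hatched events in 11 of 12 libraries.

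Hk1, the constitutive hexokinase, had 4, 4 and 4 events in LPS+NMN, 4, 4 and 3 in LPS, 5, 4 and 4 in NMN, and 7, 3 and 4 in Control libraries. Its opposite-strand events were listed in 3 LPS+NMN, 2 LPS, 3 NMN and 3 Control libraries, so for Hk1 they came with every treatment and without. Skipping of a coding exon of 69 bases was listed in all 12 libraries. Hk1 and Hk3 were named after their values were seen.

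The phosphofructokinases catalyse the committed step of glycolysis. Pfkm, the muscle form, had 5, 7 and 6 events in LPS+NMN, 3, 3 and 3 in LPS, 3, 7 and 3 in NMN, and 6, 3 and 3 in Control libraries. LPS+NMN lay wholly above LPS, by 0.80 ± 0.29 (SE) on the log2(events + 1) scale, with a limma p of 0.0174 and an adjusted p of 0.853, and it overlapped NMN and Control. Groups that did not overlap for LPS+NMN against LPS made up 1.54% of genes in the higher direction and 1.22% in the lower, beside 1 enzyme higher and 0 lower. For LPS+NMN against NMN 0 of 38 enzymes were separated, with 1.32% of genes higher and 1.39% lower. The surplus of Pfkm was mostly in first exons. A skipped exon of 63 bases was also listed in LPS+NMN replicate 3 and Control replicate 1 and in no LPS library. Of 13 Pfkm splice sites 4 matched an annotated one, which makes a missing counterpart uncertain. A first exon of between 907 and 1431 bases without an annotated counterpart was listed in 3 LPS+NMN libraries and in no other library. An annotated first exon (Pfkm-204) that ends 9 bases before it was listed in 1 library of each group, and with positions within 10 bases taken as the same the Pfkm exon was no longer separate. Its main first exon (Pfkm-201, 146 untranslated bases) was listed in 11 of 12 libraries, all but NMN replicate 3.

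Pfkp, the platelet form, had 4, 4 and 4 events in LPS+NMN, 4, 5 and 4 in LPS, 4, 4 and 6 in NMN, and 4, 4 and 4 in Control libraries. Last exons on the opposite strand were listed in LPS+NMN replicates 1 and 3 and NMN replicates 1 and 2, each at another position. The total of Pfkp in those libraries was 4. Pfkl, the liver form, had between 3 and 7 events. Pfkfb3 makes fructose 2,6-bisphosphate, an activator of phosphofructokinase, and had 9, 10 and 7 events in LPS+NMN, 5, 11 and 7 in LPS, 8, 6 and 8 in NMN, and 9, 8 and 3 in Control libraries. The 3 LPS libraries and the 3 Control libraries each spread over 6 events, and the groups overlapped. Skipping of a coding exon of 174 bases of Pfkfb3 was listed in 11 libraries, all but 1 Control library, and that of a coding exon of 87 bases in 3 LPS+NMN, 2 LPS, 2 NMN and 2 Control libraries; both lengths keep the frame.

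In the later steps of glycolysis, Aldoa, aldolase A, had 7, 7 and 7 events in LPS+NMN, 7, 6 and 6 in LPS, 6, 7 and 7 in NMN, and 7, 6 and 7 in Control libraries. An untranslated first exon of Aldoa (Aldoa-212, 171 bases) was listed in 3 LPS+NMN, 0 LPS, 2 NMN and 2 Control libraries, so it was absent from every LPS library and present in some or all libraries of each other group. Skipping of exon 2 of Aldoa-202 was listed in all 12 libraries. Gapdh, glyceraldehyde-3-phosphate dehydrogenase, ranged from 2 to 10 events, Pgam1, phosphoglycerate mutase, from 2 to 7, and Eno1, enolase, from 4 to 5. Gapdh, Pgk1, Pgam1, Eno1 and Ldha have processed copies in the mouse genome, and the sources used here do not give how reads shared with those were assigned, so their event numbers are uncertain.

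Pkm, pyruvate kinase, had 8, 6 and 5 events in LPS+NMN, 10, 6 and 5 in LPS, 9, 6 and 7 in NMN, and 7, 9 and 9 in Control libraries, and all groups overlapped. The M1 and M2 exons printed above were listed, as alternative exon ends within 1 span of 706 bases, in LPS+NMN replicate 1, LPS replicate 1, NMN replicate 1 and Control replicates 2 and 3. In these 5 libraries both exons were listed, and in the other 7 neither, so the catalogues do not separate an M1 from an M2 library. The ratio of the 2 forms cannot be had from listings. Ldha, which reduces pyruvate to lactate, had 8, 6 and 8 events in LPS+NMN, 4, 8 and 5 in LPS, 8, 10 and 10 in NMN, and 12, 8 and 6 in Control libraries. The difference of Ldha was -0.53 ± 0.26 (SE) for LPS against Control, with a limma adjusted p of 0.672, and the groups overlapped at 6 to 8 events.

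At pyruvate entry, Pdha1, the catalytic subunit of pyruvate dehydrogenase, had 2, 2 and 2 events in LPS+NMN, 2, 2 and 2 in LPS, 3, 3 and 2 in NMN, and 2, 3 and 3 in Control libraries. The additional event was a short last exon of a transcript without coding sequence (Pdha1-203, 356 bases), listed in NMN replicates 1 and 2 and Control replicates 2 and 3 and in none of the 6 libraries with LPS. Pdk3, a kinase that inactivates pyruvate dehydrogenase, had 2 events in every library but 2, with 5, 2 and 3 in Control libraries. Skipping of its coding exon 2 (142 bases) was listed in Control replicates 1 and 3. Its difference was -0.47 ± 0.20 (SE) in each comparison against Control, with limma adjusted p between 0.598 and 0.666, and Control overlapped every other group at 2. Pdk3 was named after its values were seen.

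Pdk1, another kinase of pyruvate dehydrogenase, had 4, 4 and 6 events in LPS+NMN, 4, 5 and 4 in LPS, 4, 4 and 4 in NMN, and 4, 4 and 4 in Control libraries. Pcx, pyruvate carboxylase, which refills the cycle with oxaloacetate, had 4, 4 and 6 events in LPS+NMN, 4, 6 and 6 in LPS, 5, 5 and 5 in NMN, and 6, 7 and 4 in Control libraries. Its annotated last exon was listed in 3 LPS+NMN, 3 LPS, 1 NMN and 2 Control libraries, and a short last exon of a transcript without coding sequence (Pcx-203, 182 bases) in 0, 0, 2 and 1. Pdhb, Dlat and Dld, the remaining subunits of the complex, had 2 or 3 events.

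In the TCA cycle, Cs had 2 events in every library. Among the isocitrate dehydrogenases, Idh2, the mitochondrial NADP-dependent form, had 2, 2 and 2 events in LPS+NMN, 2, 2 and 2 in LPS, 2, 2 and 4 in NMN, and 4, 4 and 2 in Control libraries. Skipping of its exon 6, printed above, and of an annotated untranslated exon of 39 bases was listed together, in NMN replicate 3 and Control replicates 1 and 2 and in no library with LPS. The difference of Idh2 was -0.49 ± 0.23 (SE) for LPS against Control, with a limma adjusted p of 0.656. An absence from all 6 libraries with LPS and presence in at least 3 of 6 without was found for 6 of 305 events of the enzymes, against 0.865% of all 141591 events. These were the Idh2, Pdha1 and Pcx events, an opposite-strand last exon of Hk1 and an unannotated first exon of Pfkm. The reverse was found for 2 of 305, against 0.744% of all. They were the first exon of Hk2-203 and another first exon of Pfkm, so Pfkm had events in both directions. This grouping was chosen after the values were seen, some of the events come from 1 gene, and so it is a description. The shares are also unlike, because an event in 1 library only cannot meet either rule. Such events made up 44.0% of all events and 29.8% of those of the enzymes.

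Idh1, the cytosolic NADP-dependent form, had 7, 6 and 7 events in LPS+NMN, 6, 6 and 7 in LPS, 6, 8 and 9 in NMN, and 10, 5 and 6 in Control libraries. Skipping of an untranslated exon of 53 bases (Idh1-204) was listed in 0 LPS+NMN, 1 LPS, 3 NMN and 0 Control libraries, so NMN stood apart from LPS+NMN and from Control. Skipping of the exons Idh3a-204 exon 3 and Idh3b-204 exon 3, in subunits of the NAD-dependent form, was listed in all 12 libraries. The exon of 12 bases of Idh3g, printed above, which adds or removes a whole number of codons, was listed as skipped in 0 LPS+NMN, 2 LPS, 0 NMN and 1 Control library.

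Ogdh, the first subunit of 2-oxoglutarate dehydrogenase, had 6, 6 and 6 events in LPS+NMN, 6, 7 and 5 in LPS, 5, 7 and 6 in NMN, and 6, 5 and 6 in Control libraries. Dlst, its second subunit, had 7 events in all 12 libraries, yet these were not the same events throughout. Its last exon was the partly coding exon 15 of Dlst-201 in 0 LPS+NMN, 2 LPS, 3 NMN and 0 Control libraries, the untranslated exon 16 of Dlst-205 in 2, 1, 0 and 2, and an exon on the opposite strand in 1, 0, 0 and 1. NMN thus held 1 last exon of Dlst in all 3 libraries and Control and LPS+NMN held others, under a constant total. The remaining events of Dlst, among them skipping of exons 2 and 3 (34 and 49 coding bases) and a retained intron of 114 bases, were listed in all 12 libraries.

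Among the later steps, Suclg2, the GTP-forming subunit of succinyl-CoA synthetase, had 3, 3 and 3 events in LPS+NMN, 2, 3 and 2 in LPS, 3, 2 and 6 in NMN, and 3, 3 and 2 in Control libraries. Skipping of its exon 2 (142 bases, partly coding) was listed in 3 LPS+NMN, 0 LPS, 1 NMN and 2 Control libraries. Skipping of the coding exon 7 of Fh1, fumarase (204 bases), was listed in 0 LPS+NMN, 2 LPS, 0 NMN and 1 Control library, and that of exon 3 of Mdh2, mitochondrial malate dehydrogenase (84 bases), in 3, 1, 1 and 2. Acly had 3 events in all libraries but NMN replicate 1, which had 4. Skipping of its exon of 30 bases, printed above, was listed in all 12 libraries, so both forms were listed with every treatment.

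**Figure D5:**
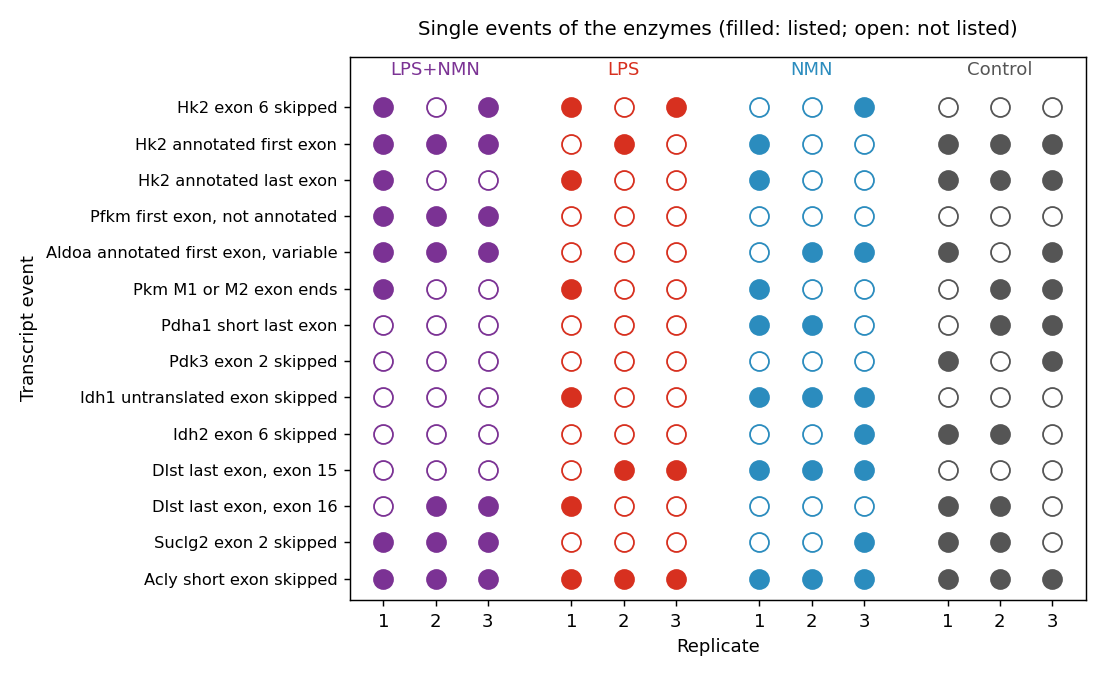
Presence (filled circles) or absence (open circles) of 14 single events of the enzymes (rows) in each library (columns, by group and replicate). The Pfkm first exon is filled in the 3 LPS+NMN libraries alone (exact positions), the Idh1 exon in all 3 NMN libraries and 1 LPS library, and the Acly exon in all 12.

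Events in all libraries of one group and none of another were few. For LPS against Control there were 0 of 254 events of the enzymes in either direction, where 0.597% of all events were in all LPS and no Control libraries and 0.613% the reverse. Between NMN and Control there were 2 of 252, the Idh1 exon and the Dlst last exon, both listed in NMN (0.545% of all events), and 0 the other way (0.473%). Between LPS+NMN and Control there was 1 of 243, the Pfkm first exon (0.632%), and 0 the other way (0.585%). Between LPS+NMN and LPS there were 3 of 248, in Pfkm, Aldoa and Suclg2, all listed in LPS+NMN (0.408%), and 0 the other way (0.362%). Between LPS+NMN and NMN there was 1 of 250 in LPS+NMN, that of Pfkm (0.321%), and 2 in NMN, those of Idh1 and Dlst (0.368%).

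By kind of event, the pathways differed in alternative exon ends, a description with no test. These made up 162 of 1012 glycolysis listings, a share near the 14.8% of all genes, and 10 of 915 TCA listings (1.09%). They came from 8 glycolysis genes, Hk3, Pkm, Ldha, Gapdh and Pgam1 among them, and from 4 TCA genes. First exons made up 43.7% of glycolysis and 47.2% of TCA listings, against 38.1% of all, and skipped exons 15.1% and 14.4%, against 88894 of the 634522 listings of all genes. Retained introns made up 0.198% and 1.31%, against 2.21%. Alternative exon ends of glycolysis numbered 18, 10 and 10 in LPS+NMN, 15, 17 and 10 in LPS, 17, 10 and 16 in NMN, and 15, 11 and 13 in Control libraries, and the groups overlapped.

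A larger share of the events of the enzymes than of all genes recurred in every library. Of their 305 distinct events, 90 (29.5%) were in all 12 libraries and 91 (29.8%) in 1, against 18.5% and 40.5% of the events of genes listed throughout. The TCA part had 37.3% of 134 events in all 12 libraries and glycolysis 23.4% of 171. In all, 47 distinct skipped exons were listed in 26 enzymes. Of these, 39 were annotated and 23 wholly coding; 14 of the coding ones have a length that is a multiple of 3 and 9 shift the frame.

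Neighbouring genes of the pathways gave the same picture. Of 14 further glycolysis isoforms and neighbours 8 were tested, of 27 TCA neighbours 18, of 8 pentose phosphate genes 6, of 6 glucose and lactate transporters 4 and of 9 hypoxia and MYC regulators 6. In each of the 5 comparisons and in the interaction, limma called 0 of them in either direction. At an unadjusted p under 0.05, limma gave Ppargc1b, a coactivator of mitochondrial genes, lower for LPS against Control, and none for NMN against Control. It gave Pfkfb1 lower and Egln3 higher for LPS+NMN against Control, Pfkfb2 lower and Egln3 higher for LPS+NMN against LPS, and Pdpr lower for LPS+NMN against NMN. For the interaction it gave Slc2a3 and Ppargc1b with a positive and Pdpr with a negative value.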

How the data were processed

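RNA of 12 BV-2 libraries had been sequenced; groups and replicate numbers are from the sample titles. The deposited files, 1 per library, list events with their type, gene, positions and strand, per the file headers; the assembly is not named. GRCm38, BWA 0.7.12, MACS2 2.1.0 and HOMER appear in the submitters' processing notes. What program wrote the event lists is not given there, and sequencing depth is unknown.

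Partner lines that mark the absence of an event (128404) and 9998 repeated lines were dropped. Between libraries, first and last exons were matched on their pattern and the remaining kinds on both positions, within gene and type. Exact and approximate forms counted apart. The design foresaw read counts or expression values; the files hold neither, so its test for other values was used: limma 3.58.1 (R 4.3.3, trend and robust moderation) on log2(events + 1), fitting the 4 group means over 12 libraries (8 residual degrees of freedom). A gene entered with 1 event in 3 libraries; 1500 fell below this and 1104 were constant. The test was tried on simulated data.

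The own strand of an enzyme is that of its GENCODE M21 annotation, or the strand of all its events where they share 1 (Pdhb lies reversed in the files); for all genes it is the strand with most events. Each enzyme needed a shift other than 0 to GRCm38, and the best shift matched more splice sites than the second best for all 38. Enzymes named with values in every library were those called, those with groups that do not overlap, those with an event in all libraries of one group and none of another, and 13 fixed genes (Hk2, Pfkfb3, Pfkp, Pkm, Ldha, Pdk1, Pdha1, Pcx, Cs, Idh1, Idh2, Ogdh, Acly). The enzymes and lists were chosen with earlier results of these data known. Alternatives covered the filter, pseudocount, moderation, samples in the fit, event classes, catalogue size, replicate block and each library left out.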

Additional observations from a re-analysis of the deposited data

How the results depend on the processing

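The count of enzymes called was 0 under every alternative run, in every comparison and in the interaction. The number of all genes called depended on the processing. For LPS against Control it was 35, and 3 with at least 5 events required in 3 libraries, 1 with only the compared groups in the fit, 3 with splicing events only, and between 32 and 55 with single libraries left out, the most without Control replicate 1. For NMN against Control it was 27, and 3, 1 and 2 under the first 3 alternatives and between 27 and 44 with single libraries left out, 44 without Control replicate 1 or 2 and 43 without Control replicate 3. For LPS+NMN against Control it was 39, and 10, 3 and 8, and between 32 and 55. For LPS+NMN against LPS it was 0, and 6 without trend and robust moderation, 3 with a pseudocount of 0.5, 1 with splicing events only, 1 with own-strand events only, and between 0 and 11 with single libraries left out, 11 without LPS replicate 1. For LPS+NMN against NMN it was 0, and 6 without trend and robust moderation. For the interaction it was 5, and 39 without trend and robust moderation, 1 with at least 5 events and 0 with splicing events only. The summed TCA difference for LPS+NMN against Control was -5 events, and -1 with first and last exons only; the cause was not tested. With positions within 10 bases counted as the same, the enzyme events in all LPS+NMN libraries and none of the other group fell to 0 against Control, where exact positions gave 1, to 2 against LPS (3) and to 0 against NMN (1). No pairing by replicate number was visible in the event numbers: of 18 same-numbered pairs 0 had a correlation of deviations over 0.1. Such numbers cannot show whether same-numbered libraries shared a culture or batch. With the replicate block 33, 26, 32, 0 and 0 genes were called in the 5 comparisons and 4 in the interaction. Counting own-strand events only was added after the values were seen. Hk2 has no value with at least 5 events required. Without a depth, an event missing from a catalogue cannot be told from one with too few reads.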
